A study of Mus musculus with 3 samples.

Results

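A set of 10 genes of the RGS family was examined for NKX2-5 binding in the embryonic mouse heart, namely Rgs2, Rgs3, Rgs4, Rgs5, Rgs6, Rgs7, Rgs10, Rgs12, Rgs14 and Rgs16. The chromatin came from hearts of wild-type Parkes mouse embryos at E11.5, immunoprecipitated with an antibody against NKX2-5 and sequenced (ChIP-seq). The samples were 2 NKX2-5 ChIP libraries, named S1 and S4, which share strain, stage and tissue, and 1 Input, for which no values were used. Enriched intervals, called peaks, were listed separately for both ChIP libraries, 4418 in S1 and 5441 in S4, with a score set by the peak caller. A peak was assigned to an RGS gene when its midpoint lay within 50 kb of the gene body in the GENCODE M1 annotation of mm9. This gave 6 peaks of S1 and 7 peaks of S4, a mean of 6.5 ± 0.707 (SD, n = 2 libraries). The family was selected on the peak score at Rgs3, which was known to be the highest, so counts and scores near them are descriptions, and no test was made between them and other genes. With 1 condition there was also no comparison between groups.

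RGS proteins (regulators of G protein signalling) bind the active alpha subunit of a heterotrimeric G protein and speed up the hydrolysis of its GTP, which shortens the signal of a G protein-coupled receptor. In the heart they act on pathways such as the slowing of the beat by acetylcholine and the response to endothelin and adrenergic agonists. NKX2-5 is a homeodomain transcription factor needed for early heart development. A peak marks where chromatin was recovered with NKX2-5 and does not show that the gene nearby is regulated.

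Both libraries had a peak in the same place at 3 loci, 2 of them in introns of Rgs3 and 1 in an intron of Rgs12. Their central 201 bp are printed because they are the RGS sequences that both libraries recovered, and the last sequence, recovered in S4 alone near Rgs10, is printed as a contrast in base composition. All are reference sequence on the plus strand of mm9. Capitals mark exact matches, on either strand, of the core of the NKX2-5 motif, which is AAGTG. They also mark its longer form TNAAGTG, where N is any base, and the core of the MEIS1 motif, which is TGACA. A match on the minus strand appears as the reverse complement, and neighbouring matches can overlap. The windows are chr4:62231184-62231384 for the first Rgs3 region, chr4:62306768-62306968 for the second, chr5:35297505-35297705 for Rgs12 and chr7:135604977-135605177 for the peak near Rgs10.
Rgs3 region 10.4 kb from the gene start: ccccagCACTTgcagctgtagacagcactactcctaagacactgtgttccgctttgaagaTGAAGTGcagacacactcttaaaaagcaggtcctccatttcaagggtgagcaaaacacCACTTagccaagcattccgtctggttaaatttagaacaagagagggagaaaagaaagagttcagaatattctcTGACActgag
Rgs3 region 86.0 kb from the gene start: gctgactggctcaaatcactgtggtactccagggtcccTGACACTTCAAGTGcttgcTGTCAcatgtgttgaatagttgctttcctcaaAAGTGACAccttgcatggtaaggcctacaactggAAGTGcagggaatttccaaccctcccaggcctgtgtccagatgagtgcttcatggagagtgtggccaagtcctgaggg
Rgs12 region 5.51 kb from the gene start: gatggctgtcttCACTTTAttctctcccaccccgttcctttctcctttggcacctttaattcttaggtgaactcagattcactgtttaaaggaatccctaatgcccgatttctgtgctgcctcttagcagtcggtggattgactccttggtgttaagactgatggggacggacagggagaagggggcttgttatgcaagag
Peak upstream of Rgs10, at the start of Tial1: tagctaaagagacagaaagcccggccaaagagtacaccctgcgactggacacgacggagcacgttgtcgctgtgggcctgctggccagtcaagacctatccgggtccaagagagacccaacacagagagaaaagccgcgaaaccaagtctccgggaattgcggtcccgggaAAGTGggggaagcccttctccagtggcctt

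The peaks of both libraries made 10 separate loci, 3 shared and 7 found in 1 library. Of the 10 genes, 5 had a peak of either library, against 39.1% of all 22380 protein-coding genes under the same rule. A peak of S1 lay near 4 of the genes, and a peak of S4 also lay near 4, while 26.3% of all protein-coding genes had an S1 peak and 32.0% an S4 peak. A shared region lay near 2 of the 10 genes, Rgs3 and Rgs12, against 15.7% of all protein-coding genes. The windows of the RGS genes covered 2.27 Mb, with 2.64 peaks per Mb in S1 and 3.09 in S4. Over the windows of all protein-coding genes the densities were 2.22 and 2.74 peaks per Mb. These counts and densities include the Rgs3 peaks on which the family was selected. The RGS genes were also longer, with a median of 42.7 kb against 15.4 kb over all protein-coding genes. The numbers are therefore given beside the background without a conclusion on whether the family differs from it.

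**Figure D1:**
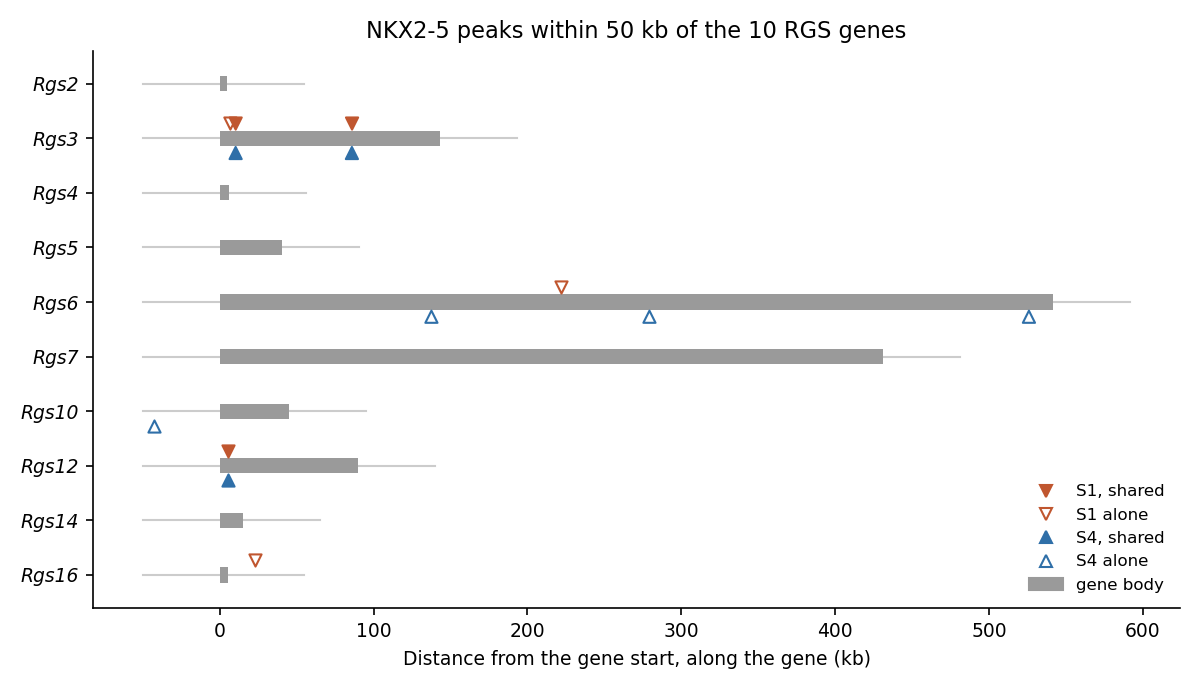
Peaks within 50 kb of each of the 10 RGS genes, by distance from the gene start in kb. Grey bars are gene bodies, thin lines the 50 kb windows, triangles pointing down S1 peaks and triangles pointing up S4 peaks, filled where a peak of the other library overlapped. Filled triangles occur at Rgs3 and Rgs12, and 5 genes have no triangle.

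The deposited score of a peak is the negative log10 of its p-value in that library, multiplied by 10, and neither list holds a score under 140.0. No read numbers entered, and sequencing depth and the precision of a score are therefore unknown. Scores are compared by their place within a list. Intervals on shares are Clopper-Pearson bounds (exact, level 0.95) and cover counting error only.

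Rgs3, a regulator of the R4 subfamily whose longer forms carry a PDZ domain, held the highest score that either list contains. The peak lay at chr4:62230813-62231755 in S1 and at chr4:62230719-62231816 in S4, and its score was 3100 in both. This value is shared by 9 peaks of S1 and 13 of S4, and the next scores were 3095 in S1 and 3097 in S4, so it is a ceiling at which peaks cannot be ranked against each other. The peak was 943 bp wide in S1 and 1098 bp in S4. The S1 peak lay wholly inside the S4 peak and covered 85.9% of it, and the midpoints were 17 bp apart, against a median of 81 bp over all 2601 S1 peaks with a partner. Against the whole lists the Rgs3 peak was wide, since 91.4% of S1 peaks and 88.7% of S4 peaks were no wider. Among peaks at the ceiling it was one of the narrow ones. In S4, 1 of the others was narrower and 11 were wider, with a median of 3392 bp over all 13. In S1, 2 were narrower and 6 wider, with a median of 1035 bp.

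The Rgs3 gene (ENSMUSG00000059810.10) spans 143 kb at chr4:62220881-62364052 on the plus strand and has 19 annotated transcripts. The midpoint of the stretch common to both peaks at the ceiling lay 10.4 kb downstream of the gene start, in intron 2 of the longest model, ENSMUST00000065870.7. That intron is 15222 bp long, and the midpoint lay 3.57 kb past exon 2. Of the 19 transcripts, 1 spans this position and the other 18 start downstream of it. The nearest of these starts, that of the coding transcript ENSMUST00000098031.3, lay 13.4 kb downstream, and the next coding starts lay 49.3 kb downstream. The region is thus intronic to the longest model and upstream of 9 of the 10 coding transcripts.

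A second shared region of Rgs3 lay deeper in the gene. It was at chr4:62306607-62307229 in S1 with a score of 201 and at chr4:62306507-62307129 in S4 with a score of 278. Both peaks were 623 bp wide, and they overlapped over 523 bp, with midpoints 100 bp apart. These scores ranked 2367 of 4418 in S1 and 1894 of 5441 in S4, that is, 53.6% and 34.8% of the way down these lists. The midpoint of the stretch lay 86.0 kb from the gene start, in intron 17 of the longest model, and 7 of the 19 transcripts span it. The nearest coding start of Rgs3, that of ENSMUST00000126338.1, lay 17.8 kb downstream, and 5 of the 10 coding transcripts start downstream of the region.

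The third Rgs3 locus was found in S1 alone, at chr4:62227616-62228120. Its score of 146 ranked 4138 of 4418, close to the lowest score of the list, and its width was 505 bp. The interval included 101 bp of exon 2 of the longest model, none of it coding, and its midpoint lay in intron 2. The nearest S4 midpoint was that of the peak at the ceiling, 3.4 kb away. Within 1 gene, scores thus ran from near the bottom of the S1 list to its ceiling. Beyond the window, the closest further peaks of S4 lay 52.9 kb and 57.7 kb upstream of Rgs3, with scores of 184 and 225, the latter 0.098 kb from the start of Hdhd3, and neither overlapped an S1 peak.

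**Figure D2:**
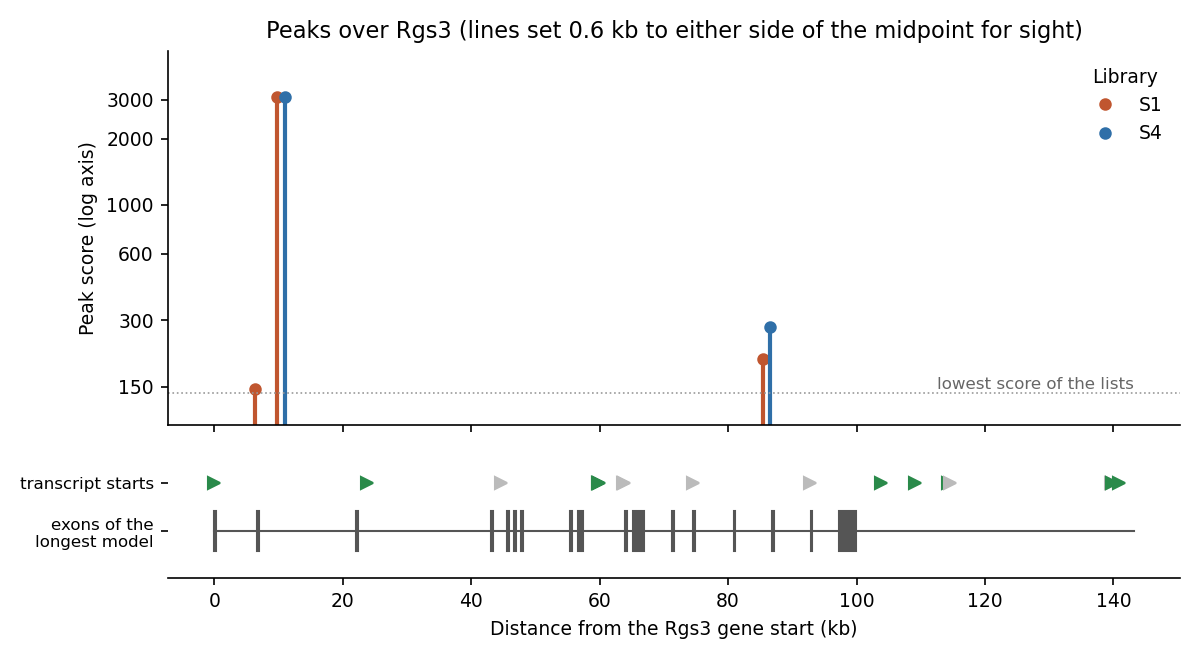
Peaks over Rgs3, by distance from the gene start in kb and by score on a log axis, for S1 and S4, with exons of the longest model and transcript starts below (green for coding). Both libraries reach 3100 at 10.4 kb and have a lower pair of peaks, at 201 and 278, near 86.0 kb, while the peak at 6.99 kb is in S1 alone.

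Rgs12 belongs to the R12 subfamily, whose larger members also carry Ras-binding and GoLoco domains. The gene (ENSMUSG00000029101.8) spans 90.2 kb at chr5:35292094-35382293 on the plus strand. Its shared region lay at chr5:35297260-35297951 in S1 and chr5:35297046-35297998 in S4. The score was 398 in S1, rank 772 of 4418, and 222 in S4, rank 2753 of 5441. This pair thus stood higher in the S1 list than in the S4 list, the reverse of the second Rgs3 region. The log2 ratio of S4 to S1 was -0.84 at Rgs12 and 0.47 at the second Rgs3 region, and at the ceiling it cannot be read because both scores are capped. Over all S1 peaks with a partner the median log2 ratio was 0.18, and 90% of the ratios lay between -0.88 and 1.48, a range that holds both values. The S1 peak of Rgs12 was 692 bp wide and lay wholly inside the S4 peak of 953 bp, with midpoints 83 bp apart. The midpoint of the stretch was 5.51 kb downstream of the gene start, in intron 1 of the coding transcript ENSMUST00000030984.7, and no protein-coding start of another gene was closer.

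Rgs6, an R7 regulator known to curb the slowing of the heart beat through muscarinic receptors, had 4 loci and no shared one. The gene (ENSMUSG00000021219.9) is the longest of the family here, 542 kb at chr12:83717912-84259755. S1 had a peak at chr12:83939420-83939831 with a score of 183. S4 had peaks at chr12:83855205-83855872 with a score of 235, at chr12:83996803-83997652 with a score of 189 and at chr12:84243461-84244209 with a score of 180.03. All 4 midpoints were intronic, from 138 kb to 526 kb downstream of the gene start. The S1 peak lay 57.6 kb from the nearest S4 midpoint, so the lists did not mark the same sites in this gene. Of these scores, only the S4 score of 235 was in the upper part of its list, where it ranked 2516 of 5441.

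The peaks near Rgs10 and Rgs16 lay outside the bodies of these genes. RGS10 is a small regulator with little beyond its RGS domain. Its gene (ENSMUSG00000030844.5, chr7:135517135-135562272, minus strand) had an S4 peak at chr7:135604666-135605489 with a score of 255, 42.8 kb upstream. That midpoint lay 0.109 kb from a coding start of Tial1, which encodes an RNA-binding protein, in an exon of Tial1. The nearest S1 midpoint was 685 kb away. RGS16 is a small regulator of the R4 subfamily. Its gene (ENSMUSG00000026475.7, chr1:155587479-155592598) had an S1 peak in its window with a score of 161 and none of S4. The nearest S4 midpoint was 136 kb away. The peak near Rgs10 is closer to the start of Tial1 than to that of Rgs10.

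The other 5 genes had no peak within 50 kb in either library. Rgs2, which acts mainly on Gq alpha subunits, was just outside the limit. A shared region lay upstream of it, at chr1:145902684-145903435 in S1 with a score of 371, 51.8 kb from the gene body, and at chr1:145902512-145903548 in S4 with a score of 289.8, 51.7 kb from it. No protein-coding start was closer to this region than that of Rgs2. Just inside the limit, the peak most distant from a gene body was that near Rgs10, at 42.8 kb. Rgs14 had its nearest peaks 111 kb downstream, scoring 762 in S1 and 803 in S4, and these lay 7.18 kb from the start of Dbn1. Rgs4 and Rgs5, which neighbour each other on chromosome 1, shared their nearest peaks, 222 kb from Rgs4 and 274 kb from Rgs5, which scored 178 in S1 and 239 in S4. RGS5 is known as a marker of pericytes. Rgs7, an R7 regulator best known from the nervous system, had none within 633 kb although its gene is 431 kb long.

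Gene length differed widely, from 4.82 kb at Rgs2 to 542 kb at Rgs6, and longer genes have wider windows. Among all protein-coding genes the share with a shared region was 12.7% under 20 kb, 16.1% from 20 kb to 100 kb and 29.7% over 100 kb. The RGS genes over 100 kb were Rgs3 with 5 peaks, Rgs6 with 4 and Rgs7 with 0. Of the 4 RGS genes under 20 kb, namely Rgs2, Rgs4, Rgs14 and Rgs16, only Rgs16 had a peak. A peak of either list lay near 33.8% of protein-coding genes under 20 kb, 42.2% of those from 20 kb to 100 kb and 58.0% of those over 100 kb.

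Of the 6 S1 peaks near the family, 3 shared at least 1 bp with an S4 peak (50%, 11.8 to 88.2), against 58.9% of all S1 peaks. Of the 7 S4 peaks, 3 overlapped an S1 peak (42.9%, 9.9 to 81.6), against 47.0% of all S4 peaks. One of the overlapping pairs is the Rgs3 pair at the ceiling, on which the family was selected, so these shares are descriptions. The 3 S1 peaks without a partner had scores of 145.6 to 183, below all 3 shared S1 peaks, which started at 201. In S4 the scores overlapped, since the 4 peaks without a partner ran from 180.03 to 255 and the shared peak of Rgs12 had 222. The median score was 192 in S1, against 212 over the whole list, and 235 in S4, against 223. The median width was 564 bp in S1 and 824 bp in S4, against 625 bp and 783 bp over the whole lists. After Rgs3 at 3100, the highest score was 398 in S1, at Rgs12, and 278 in S4, at the second Rgs3 region.

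**Figure D3:**
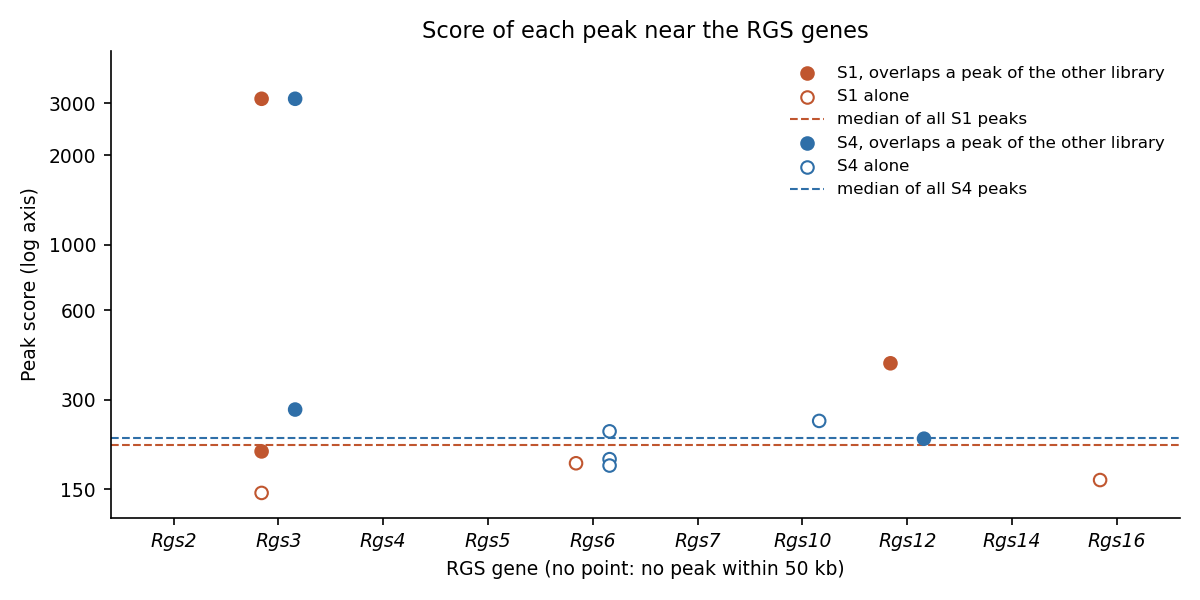
Score of each peak near the 10 RGS genes on a log axis, with S1 and S4 side by side and dashed lines at the median of each whole list. Filled points overlap a peak of the other library. The Rgs3 pair at 3100 stands far above the rest, which lie between 145.6 and 398.

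By position, 8 of the 10 loci lay inside the body of their RGS gene, and all 8 had an intronic midpoint. Over all shared regions inside a protein-coding gene body, 75.6% were intronic, 18.9% lay within 1 kb of a transcript start and 5.56% in an exon. Unlike the 8 loci, that set leaves out peaks found in 1 library. None of the 3 shared regions lay within 1 kb of an annotated transcript start, against 17.0% of all 2546 shared regions, and the closest start was 5.51 kb away, that of Rgs12. With 3 regions, a count of 0 sets no useful upper limit.

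The sequences printed above were searched for the cores of the motifs that the study discussed. The study scanned motif matrices within 25 bp of the summit, the highest point of a peak. Here exact matches were placed by distance from the midpoint of the stretch, which need not be the summit. Within 100 bp of the midpoint, AAGTG was present in all 3 shared regions, against 64.0% of all shared regions, and TGACA in 2 of 3, both in Rgs3, against 64.3%. The first Rgs3 region, the one at the ceiling, held AAGTG at -92, -36 and 20 bp from the midpoint, the second of these as the longer form TNAAGTG. The longer form was present in 32.4% of all shared regions. TGACA lay at 93 bp in that region, at the edge of the window. The cores were therefore present there, but not next to each other.

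The second Rgs3 region, with scores of 201 and 278, was denser in matches. It held 4 AAGTG and 3 TGACA within 100 bp of the midpoint, against means of 1.037 and 1.123 over all shared regions. A pair overlapped as AAGTGACA, at -7 bp, a form present in 62 of 2546 shared regions (2.44%). The form was added after the data were seen, so that share is a description only. Further upstream, TGACA at -60 bp was overlapped by AAGTG on the minus strand at -57 bp, with another AAGTG on the plus strand at -51 bp, so the NKX2-5 cores there pointed away from each other on opposite strands. The form with GTG and TGACA at a spacing of 1 bp, GTGNTGACA, was absent from the windows of all 3 shared regions. It was present in 9.47% of all shared regions, and with 3 regions its absence sets no useful upper limit. In Rgs12, AAGTG was found at -86 bp, as the longer form TNAAGTG on the minus strand, and the 4 TGACA of the stretch all lay more than 100 bp from the midpoint.

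The loci found in 1 library were searched in the same way. AAGTG lay within 100 bp of the midpoint at the S1 locus of Rgs3, at 2 of the 4 Rgs6 loci and at those near Rgs10 and Rgs16. At the other 2 Rgs6 loci it lay further out. TGACA lay within 100 bp at all 4 Rgs6 loci and near Rgs16, but not at the S1 locus of Rgs3 or near Rgs10. Over all shared regions, which leave out peaks found in 1 library, the shares were 64.0% for AAGTG and 64.3% for TGACA. The peak at the start of Tial1 had the highest G and C content of the 10 loci, with 63.3% G and C and 60 CpG in 824 bp, and it held 1 AAGTG and no TGACA. The other 9 loci had 43.9% to 55.3% G and C and 2 to 13 CpG. In its central 201 bp the share was 58.7%, against a median of 49.8% over all shared regions, of which 90% lay between 40.3% and 61.2%. A match is a match of letters only and no measure of binding.

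**Figure D4:**
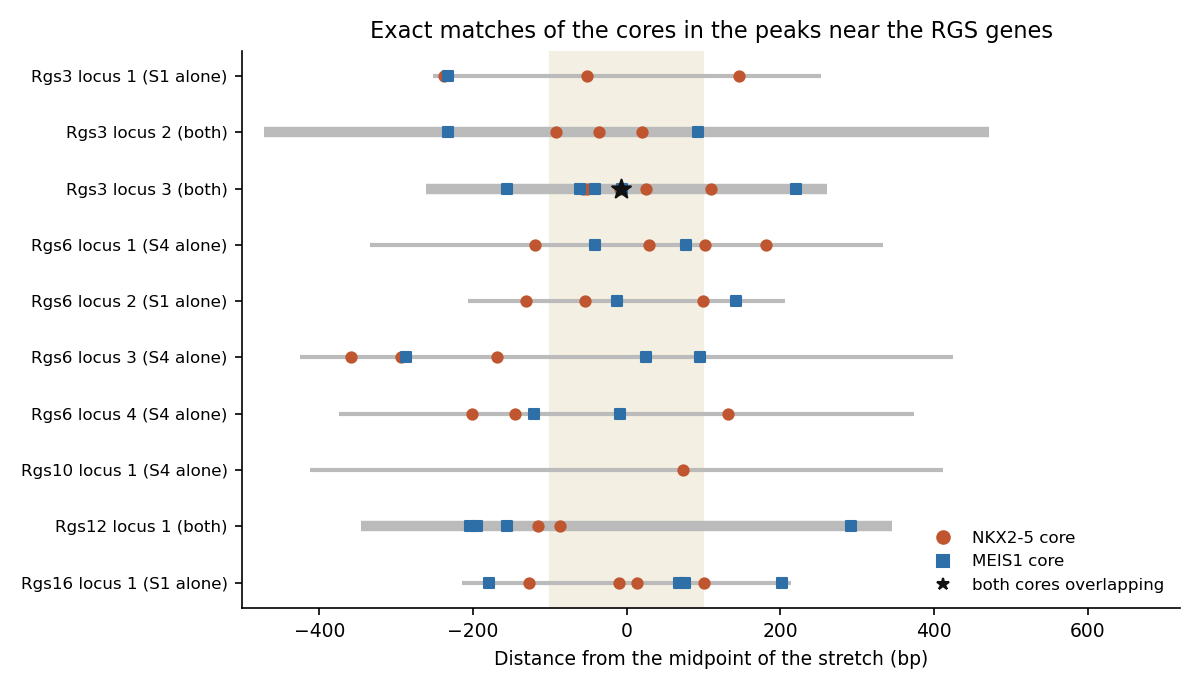
Exact matches of the NKX2-5 core AAGTG, the MEIS1 core TGACA and their overlap AAGTGACA in the 10 loci, by distance from the midpoint in bp. Thick grey lines are stretches covered by both libraries, thin ones peaks of 1 library, and the shaded band is 100 bp on each side. The overlap (star) occurs once, at -7 bp in the second shared region of Rgs3.

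The ceiling of 3100 was reached in both libraries by 6 shared regions, and 4 of them lay in a gene body. By the lower of both scores, the genes most like Rgs3 were thus Srgap1, Sipa1l3 and Odz4. Srgap1 and Sipa1l3 encode activating proteins of small GTPases and Odz4 a teneurin. Within 100 bp of the midpoint, the region of Rgs3 held 3 AAGTG and 1 TGACA, that of Odz4 3 and 1, that of Sipa1l3 2 and 2, and that of Srgap1 held neither. Outside gene bodies, the ceiling region on chromosome 6 nearest to Zfp777 held 3 and 3, and that on chromosome 17 neither. The region near Zfp777 was 1084 bp wide in S1 and 1024 bp in S4. Among 20 evenly spaced words of 32 bases from the Rgs3 region, all 20 occurred once in the assembly, and the same held for Srgap1, Sipa1l3 and Odz4. In the wide region on chromosome 17 that also reached the ceiling, 16 of 20 words occurred once and 1 word occurred 1459 times. In the region near Zfp777, 19 of 20 words occurred once, with at most 2 copies. Of the 10 RGS loci, 8 had all 20 words once, and at the Rgs6 loci of S4 at 138 kb and 526 kb from the start 1 word each was repeated, up to 1010789 and 20403 times.

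The wider pathway was read from 6 lists with 52 genes, all in the annotation. These lists were chosen with earlier results of these data known, so their counts are descriptions. A shared region lay within 50 kb of 10 of them (19.2%), against 15.7% of all protein-coding genes, with a median gene length of 53.4 kb against 15.4 kb. Among the other RGS genes the count was 2 of 11, among other genes with an RGS domain 3 of 13, among G protein alpha subunits 2 of 13, among receptors 2 of 10, among channels 1 of 2, and among partners of the R7 group 0 of 3. The regions numbered 11, since Rgs9 and Gna13 share one.

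Gnai2, which encodes an alpha subunit of the inhibitory class that RGS proteins act on, had by far the highest scores of these lists. Its region at chr9:107521368-107522309 scored 2559 in S1 and 2059 in S4, within the highest 0.317% and 0.643% of the lists, and it lay in an intron 15.8 kb from the Gnai2 start. The closest coding start was that of Sema3b, 10.3 kb away. Kcnj5, a subunit of the acetylcholine-gated potassium channel, had an intronic region 20.3 kb from its start, with scores of 349 and 209. Adrbk2, a receptor kinase, had 3 regions. The one in its intron, 82.6 kb from the start, scored 464 in S1 and 491 in S4. The coding start closest to it was that of Myo18b, 36.9 kb away. The others lay downstream of Adrbk2, 0.106 kb and 11.8 kb from the start of Myo18b. Their scores were 159 and 235 in S1 and 219 and 377 in S4.

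The other list genes had regions of lower score or nearer to another gene. That of Grk6 is the same as that downstream of Rgs14, with scores of 762 and 803. Arhgef12, whose product carries an RGS domain, had a region 0.491 kb upstream of its start, with scores of 181 and 185. Rgs22 had a region over a coding exon, with scores of 172 and 204. The region between Rgs9 and Gna13 scored 187 and 166 and lay 19.1 kb upstream of Gna13. The region near Adora1, with scores of 278 and 208, lay in the body of Chit1, and that near Adra1a, with scores of 297 and 239.9, in the body of Dpysl2.

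**Figure D5:**
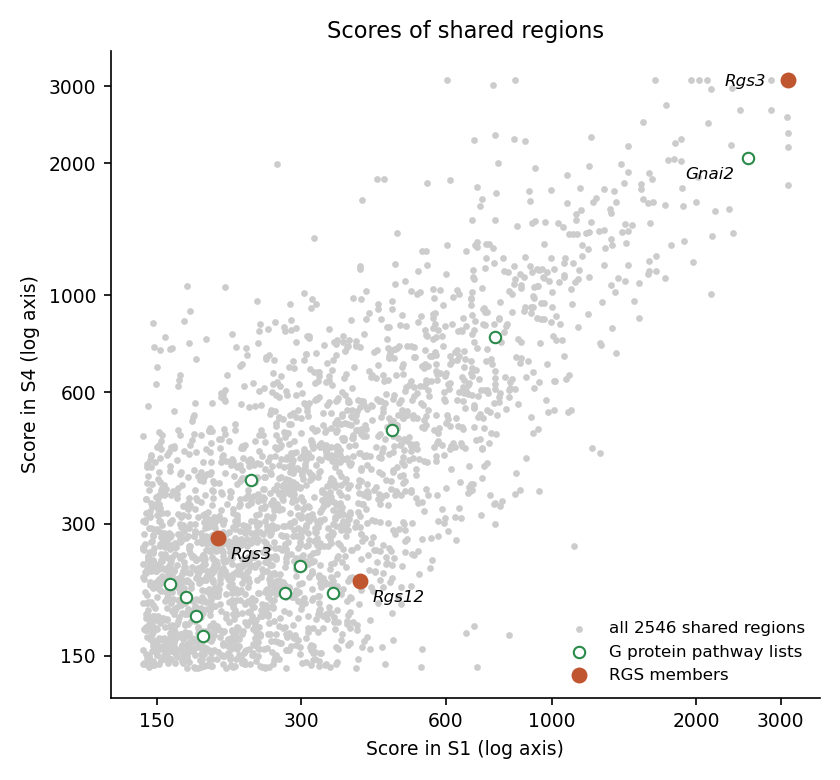
Scores of shared regions in S1 and S4 on log axes, for all 2546 regions (grey), the 11 regions near genes of the pathway lists (green rings) and the 3 of the RGS genes (red). The first Rgs3 region sits at the ceiling of 3100 in both libraries and Gnai2 below it, while the second Rgs3 region and Rgs12 lie among the bulk of regions.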

How the data were processed

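Chromatin of E11.5 mouse hearts was immunoprecipitated with an NKX2-5 antibody in 2 libraries, with 1 Input. Per the methods of the study, alignment to mm9 used BOWTIE and peak calling used MACS 1.4, and the labels also name CASAVA 1.4. Settings, and whether the Input was the control, are not given in the sources used here. For S1 and for S4 the authors deposited a separate list of peaks, unpooled, with a score for each peak and its start and end in bp. Scores were set within a library, with no scaling across them. Figure legends of the study call S1 and S4 2 experiments. Nothing in the labels says that the libraries came from separate collections of hearts.

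No peak passed the end of its NCBIM37 (mm9) chromosome. Coordinates are counted from 1. Peaks with 1 bp or more in common were shared, and pairs with a peak in common were merged. Promoters were within 1 kb of a transcript start in GENCODE M1, and motifs were exact matches on either strand. The RGS genes, the lists and the form TNAAGTG were chosen with earlier results of these data known. The named genes were the RGS genes, list genes with a shared region and genes at the highest score. AAGTGACA, the words of 32 bases and the composition were added after the data were seen. The annotation at the peak near Rgs16 is not reported here. No significance test was made. Alternatives were a score of at least 200, windows of 20 kb and 100 kb, other overlap rules, coding transcripts only, motif windows of 25 bp or the whole stretch, and a promoter limit of 5 kb. Peak assignment was tested on simulated data. Python 3.11.15, numpy 2.4.6, pandas 2.3.3, scipy 1.17.1, pysam 0.24.0 and matplotlib 3.10.9 were used.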

Additional observations from a re-analysis of the deposited data

How the results depend on the processing

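Of 61 alternatives computed for 14 results, 57 left the value within its allowed range and 4 moved it. The range was 1.5 times for counts, the exact interval for shares and 1 SD between libraries for medians. For the scores of pairs it was 1 SD among the log2 ratios of the 3 pairs. Their median ratio of 0.0 was that of the capped Rgs3 pair, so the alternatives for it carry little information. When scores under 200 were dropped from the lists, the mean number of peaks near the RGS genes fell from 6.5 to 4.0 per library, all 3 remaining S1 peaks had an S4 partner (100%), and the median S1 score rose to 398. Fewer peaks, a higher median and the share of 100% follow from the filter. It removed the 3 S1 peaks without a partner, which scored 145.6 to 183. The share over all S1 peaks at this cut was not computed. Over the whole stretch covered by both peaks, TGACA was present in 100% of the 3 shared regions, against 87.2% of all shared regions. In a window of 25 bp on each side TGACA was present in 33.3% of them and AAGTG in 66.7%, against 25% and 22.3%. With 3 regions the interval of a share is so wide that these drops stay inside it. Leaving out each library in turn gave 6 to 7 peaks. A window of 100 kb added the shared region upstream of Rgs2, giving 4 shared regions near 3 genes. The 3 shared regions stayed 3 when 50% of each peak had to overlap, when midpoints had to lie within 150 bp, and in a window of 20 kb. The 5 alternatives for the scores of pairs and without the Rgs3 peak at the highest score were chosen after seeing the data. Unknown depth limits the reading of scores, widths and of genes with no peak. No paired analysis was possible because there is 1 condition with peak lists and no test.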
